A study of Homo sapiens with 12 samples.

Results

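A set of 9 genes of the NRF2 antioxidant response was followed through knockdown of TTK in oral squamous cell carcinoma cells. They were taken by symbol from the deposited count table, in which they occupy 9 of 58735 lines, 1 line each, and all 9 passed the filter on low counts. The set holds NFE2L2, which encodes the transcription factor NRF2, and KEAP1, which encodes its inhibitor. It also holds 7 genes known as NRF2 targets: GCLC, GCLM, TXNRD1, SRXN1, NQO1, HMOX1 and AKR1C1.

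NRF2 is a basic leucine zipper factor whose amount is set largely by protein turnover. KEAP1 presents NRF2 to a CUL3 ubiquitin ligase, and electrophiles or oxidants that modify cysteines of KEAP1 let NRF2 accumulate, pair with a small MAF protein and bind antioxidant response elements in its target genes. Squamous carcinomas, those of the head and neck included, often carry alterations of this pair of regulators, and high NRF2 activity in tumours is known for glutathione and thioredoxin recycling, drug clearance and NADPH supply.

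CAL-27 and SCC-15 are established lines of human oral squamous cell carcinoma. TTK, also called MPS1, is the kinase of the mitotic spindle checkpoint, and the series title ties it to mTORC1 and NF-kB activity. The 12 libraries formed 4 groups of 3: CAL-27 shTTK (TTK knockdown), CAL-27 shControl, SCC-15 shTTK and SCC-15 shControl. The control libraries were titled shControl but described as wild type and without treatment, so whether they carried a control hairpin is not settled. The labels name no time point, hairpin sequence or clone, place all libraries in batch 1, and do not say whether the replicates were separate cultures, so the spread behind each p-value may be technical. TTK had 35.6, 32.5 and 33.5 CPM (counts normalised to library size, TMM-scaled) in CAL-27 shTTK, against 46.4, 48.4 and 53.4 CPM in CAL-27 shControl. In SCC-15, TTK had 26.9, 29.2 and 34.3 CPM in shTTK, against 67.5, 69.4 and 72.9 CPM in shControl. The knockdown thus left 68.6% of the control level in CAL-27 and 43.1% in SCC-15, and the log2 changes in SCC-15 and CAL-27 differed by -0.67 (SE 0.093, edgeR adjusted p = 2.37e-08).

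The libraries held 16176655 to 18484112 counts each, and the tests covered 16946 genes. Among markers of other cell types, KDR was at 0 in all groups, and PTPRC was at 0 in CAL-27. The 4 endothelial markers, mostly CDH5, summed to 72.4 to 74.3 CPM in CAL-27 shTTK, against 102 to 110 CPM in CAL-27 shControl, and to at most 2.25 CPM in SCC-15. The 6 fibroblast markers summed to 41.2 to 42.1 CPM in CAL-27 shTTK, against 31.9 to 37.6 CPM in CAL-27 shControl, and to 20.6 to 22.7 CPM in SCC-15 shTTK, against 21.1 to 23.0 CPM in SCC-15 shControl. The 5 leukocyte markers summed to 11.0 to 14 CPM in CAL-27 shTTK, against 8.24 to 11.8 CPM in CAL-27 shControl, and to at most 0.758 CPM in SCC-15. The 7 squamous markers summed to 4031 to 4096 CPM in CAL-27 shTTK, against 2402 to 2484 CPM in CAL-27 shControl, and to 6557 to 6564 CPM in SCC-15 shTTK, against 7040 to 7387 CPM in SCC-15 shControl. The part of these shifts in the results was not tested. In SCC-15, the library numbered 1 stood apart within both groups: over genes, its mean chi-square against the other two libraries was 3.07 and 3.78 in shTTK and 5.62 and 5.96 in shControl, against 1.95 and 1.98 between the other two libraries of shTTK and of shControl. Between replicates within the CAL-27 groups, the mean chi-square was 2.37 to 2.89. The median over genes, relative to counting noise, was 1.92 and 2.11 for library 1 of SCC-15 shControl, against 1.76 between its other libraries. For library 1 of SCC-15 shTTK it was 2.19 and 2.63, against 1.77. Within the CAL-27 groups this median was 1.93 to 2.14, so library 1 of SCC-15 shControl was set apart by the mean more than by the median. Where a call for one of the 9 genes in SCC-15 changed without the SCC-15 libraries numbered 1, it is given both ways.

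With TTK knockdown, 5 of the 9 genes fell in CAL-27 (KEAP1, TXNRD1, GCLM, HMOX1 and SRXN1) and 1 rose (AKR1C1). In the whole table, 27.3% of tested genes were called in CAL-27, 11.6% higher and 15.7% lower. In SCC-15, 5 genes fell (KEAP1, TXNRD1, GCLM, HMOX1 and AKR1C1) and none was called higher, where 27.7% of all tested genes were called, 13.4% higher and 14.3% lower. Without both SCC-15 libraries numbered 1, 4 genes were lower in SCC-15 (KEAP1, TXNRD1, SRXN1 and AKR1C1). The median log2 change over the 9 genes was -0.15 in CAL-27 and -0.14 in SCC-15, while the median over all tested genes was -0.01 in CAL-27 and 0.00 in SCC-15. KEAP1, TXNRD1, GCLM and HMOX1 were lower in both lines, a pattern that 4.01% of all tested genes had. AKR1C1 moved in opposite directions, higher in CAL-27 and lower in SCC-15, as did 1.91% of all tested genes. NFE2L2, NQO1 and GCLC passed the test in neither line. The changes in SCC-15 and CAL-27 differed for 3 of the 9 genes, positively for TXNRD1 and GCLM and negatively for AKR1C1, where 13.3% of all tested genes differed positively and 12.1% negatively (25.4% in all). The shTTK and shControl libraries did not overlap for 7 of the 9 genes in CAL-27 (39.7% of all tested genes) and for 5 in SCC-15 (40.9%). A gene is called here at an adjusted p under 0.05 (edgeR's quasi-likelihood test, Benjamini-Hochberg over all tested genes, two-sided), and in bulk RNA fewer cells with a transcript and less transcript per cell cannot be told apart.

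**Figure D1:**
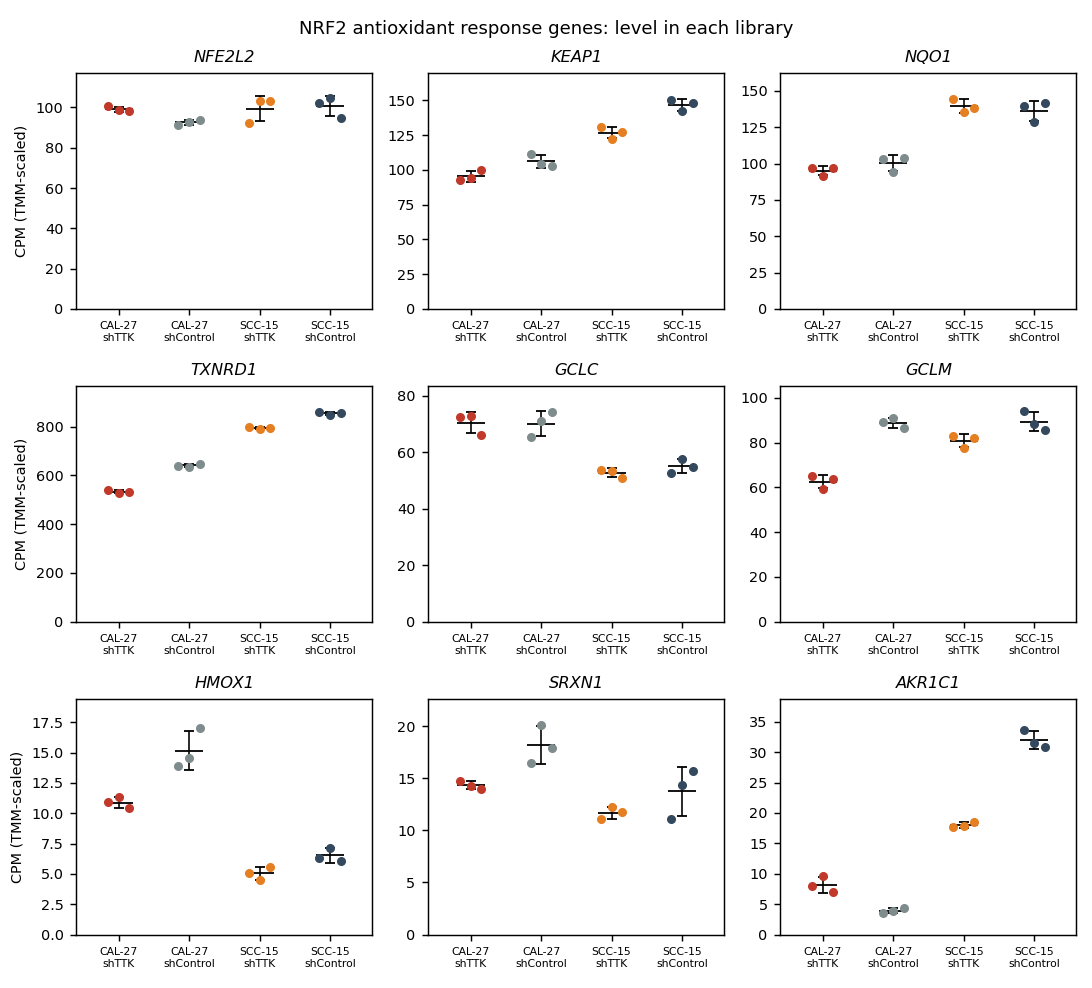
Level of each gene in CPM (TMM-scaled, axis from 0) in the 12 libraries; points are libraries, the horizontal tick is the group mean and the bars are 1 SD (n = 3). GCLM and TXNRD1 lie lower in shTTK than in shControl of both lines without overlap, and AKR1C1 is higher in shTTK in CAL-27 and lower in SCC-15.

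The transcript of NRF2 itself hardly moved. NFE2L2 (chromosome 2, 177227595 to 177392697, minus strand, GRCh38) had 101, 98.7 and 98.0 CPM in CAL-27 shTTK, against 91.4, 92.8 and 93.8 CPM in CAL-27 shControl. The CAL-27 groups did not overlap, yet the log2 change of 0.10 (SE 0.044) missed the threshold (edgeR adjusted p = 0.0991). It passed when CAL-27 was fitted alone (log2 change 0.12, edgeR adjusted p = 0.0285), and in 4 of the fits that left out 1 SCC-15 library. In SCC-15, NFE2L2 had 92.4, 103 and 103 CPM in shTTK, against 102, 105 and 95 CPM in shControl, with a log2 change of -0.02 (95% interval -0.10 to 0.07).

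KEAP1 (chromosome 19, 10486120 to 10503741, minus strand), the adaptor that targets NRF2 for degradation, fell in both lines. It had 92.4, 94.0 and 99.9 CPM in CAL-27 shTTK, against 111, 105 and 103 CPM in CAL-27 shControl. In SCC-15 it had 131, 123 and 127 CPM in shTTK, against 150, 142 and 148 CPM in shControl. All 3 shTTK libraries lay under all 3 shControl libraries in each line. The log2 change was -0.15 in CAL-27 (SE 0.042, edgeR adjusted p = 0.00334) and -0.21 in SCC-15 (SE 0.040, edgeR adjusted p = 1.30e-05), and the changes did not differ detectably between lines (difference -0.06, 95% interval -0.17 to 0.06). The CAL-27 call was lost without shTTK replicate 1 (edgeR adjusted p = 0.0795).

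The count of KEAP1 relative to NFE2L2 averaged 0.964 ± 0.0510 in CAL-27 shTTK and 1.15 ± 0.0629 in CAL-27 shControl (SD, n = 3 each), with no overlap. In SCC-15 it averaged 1.28 ± 0.119 in shTTK and 1.46 ± 0.102 in shControl (SD, n = 3 each), and the groups overlapped. The exact two-sided permutation p was 0.1 in CAL-27, the smallest that 3 against 3 allow, and 0.2 in SCC-15.

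Glutamate-cysteine ligase, the first and rate-limiting enzyme of glutathione synthesis, pairs a catalytic subunit (GCLC) with a modifier subunit (GCLM) that improves its kinetics. GCLM (chromosome 1, 93885205 to 93909456, minus strand) had 64.9, 59.2 and 63.6 CPM in CAL-27 shTTK, against 89.1, 91.0 and 86.4 CPM in CAL-27 shControl. The knockdown libraries thus held 70.4% of the control level in CAL-27 (log2 change -0.51, SE 0.048, edgeR adjusted p = 1.69e-14), with a wide gap between the groups. In SCC-15, GCLM had 83.0, 77.4 and 82.0 CPM in shTTK, against 93.9, 88.3 and 85.5 CPM in shControl. This was 90.6% of the control level (log2 change -0.14, SE 0.046, edgeR adjusted p = 0.0137), a call that was lost without both SCC-15 libraries numbered 1 (log2 change -0.12, edgeR adjusted p = 0.106), without shControl replicate 1 alone (edgeR adjusted p = 0.150) and without shTTK replicate 2 (edgeR adjusted p = 0.148). The change in SCC-15 minus that in CAL-27 was 0.36 (SE 0.067, edgeR adjusted p = 1.03e-05), so GCLM fell further in CAL-27.

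GCLC (chromosome 6, 53497341 to 53616970, minus strand) did not follow its partner. It had 72.6, 72.8 and 66.2 CPM in CAL-27 shTTK, against 65.4, 71.0 and 74.2 CPM in CAL-27 shControl. In SCC-15 it had 53.9, 53.4 and 51.1 CPM in shTTK, against 52.7, 57.8 and 54.9 CPM in shControl. The groups overlapped in both lines, with log2 changes of 0.01 (95% interval -0.10 to 0.11) in CAL-27 and -0.06 (95% interval -0.17 to 0.05) in SCC-15.

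The count of GCLM relative to GCLC averaged 0.889 ± 0.0736 in CAL-27 shTTK and 1.27 ± 0.10 in CAL-27 shControl (SD, n = 3 each). These groups did not overlap, and the exact two-sided permutation p was 0.1, the smallest possible with 3 against 3. In SCC-15 the ratio averaged 1.53 ± 0.0785 in shTTK and 1.62 ± 0.139 in shControl (SD, n = 3 each), with overlap and an exact two-sided permutation p of 0.5.

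**Figure D2:**
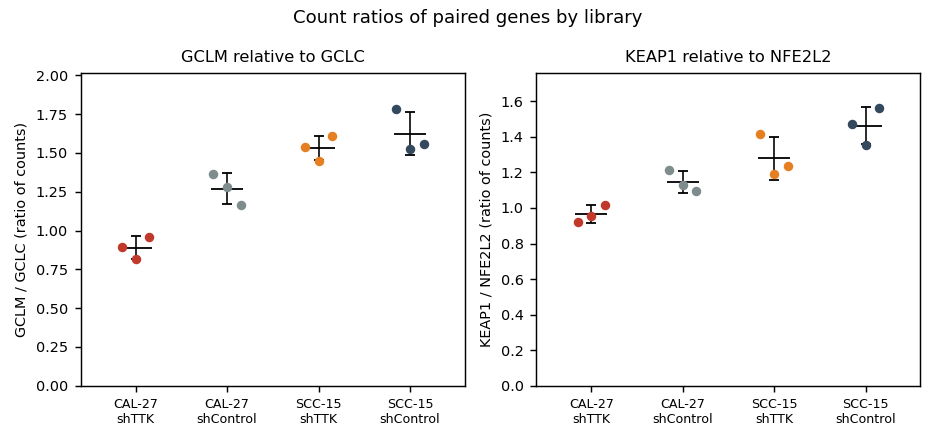
Ratio of counts in each library for GCLM relative to GCLC (left) and KEAP1 relative to NFE2L2 (right), axis from 0; points are libraries, ticks are means and bars are 1 SD (n = 3). Both ratios are lower in CAL-27 shTTK than in CAL-27 shControl without overlap (GCLM relative to GCLC 0.889 and 1.27), while the SCC-15 groups overlap.

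TXNRD1 (chromosome 12, 104215779 to 104350305, plus strand) encodes the cytosolic thioredoxin reductase, which uses NADPH to keep thioredoxin reduced. It had 538, 527 and 533 CPM in CAL-27 shTTK, against 640, 634 and 648 CPM in CAL-27 shControl. In SCC-15 it had 800, 790 and 793 CPM in shTTK, against 860, 846 and 857 CPM in shControl. Of the 9 genes, TXNRD1 had the smallest spread between replicates relative to its mean in each group, and its shTTK and shControl libraries were well apart in both lines. The log2 change was -0.27 in CAL-27 (SE 0.029, edgeR adjusted p = 3.16e-12) and -0.11 in SCC-15 (SE 0.028, edgeR adjusted p = 0.00256). The difference of 0.16 between them also passed (SE 0.040, edgeR adjusted p = 0.00129): TXNRD1 fell further in CAL-27.

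SRXN1 (chromosome 20, 646615 to 653370, minus strand) encodes sulfiredoxin, which restores over-oxidised peroxiredoxins. It had 14.8, 14.3 and 14 CPM in CAL-27 shTTK, against 16.5, 20.1 and 17.9 CPM in CAL-27 shControl, with a log2 change of -0.34 (SE 0.102, edgeR adjusted p = 0.00670). The groups did not overlap, but the call rested on the highest control library and was lost without shControl replicate 2 (log2 change -0.24, edgeR adjusted p = 0.118). In SCC-15, SRXN1 had 11.1, 12.2 and 11.7 CPM in shTTK, against 11.1, 14.4 and 15.7 CPM in shControl, which overlapped (log2 change -0.24, SE 0.107, edgeR adjusted p = 0.0957). Without shControl replicate 1 the SCC-15 change passed the threshold (log2 change -0.37, edgeR adjusted p = 0.0108), as it did without both SCC-15 libraries numbered 1 (edgeR adjusted p = 0.0434). SRXN1 counts are uncertain, since 84.2% of the 150-base windows of its transcript also belong to an overlapping readthrough gene on the same strand, AL121758.1, which held 0 to 5 counts per library.

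NQO1 (chromosome 16, 69706996 to 69726951, minus strand) encodes a quinone reductase that is a standard readout of NRF2. It had 96.7, 91.4 and 97.3 CPM in CAL-27 shTTK, against 103, 94.4 and 104 CPM in CAL-27 shControl. In SCC-15 it had 145, 136 and 138 CPM in shTTK, against 139, 129 and 141 CPM in shControl. The groups overlapped in both lines, and the 95% intervals of the log2 change were -0.16 to 0.01 in CAL-27 and -0.05 to 0.11 in SCC-15.

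HMOX1 (chromosome 22, 35380361 to 35394214, plus strand) encodes haem oxygenase 1, which opens the haem ring and is induced by haem through release of the repressor BACH1 as well as by NRF2. It had 10.9, 11.4 and 10.4 CPM in CAL-27 shTTK, against 13.9, 14.6 and 17.0 CPM in CAL-27 shControl (log2 change -0.48, SE 0.115, edgeR adjusted p = 7.37e-04). In SCC-15, where it was rare, it had 5.07, 4.49 and 5.59 CPM in shTTK, against 6.34, 7.17 and 6.04 CPM in shControl. Neither line showed overlap between its groups. The SCC-15 call was marginal (log2 change -0.37, SE 0.142, edgeR adjusted p = 0.0439), and it was lost with DESeq2 (adjusted p = 0.0742) and without both SCC-15 libraries numbered 1 (edgeR adjusted p = 0.104). In all it was lost in 13 of 20 alternative fits, with adjusted p up to 0.211 without shTTK replicate 2.

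**Figure D3:**
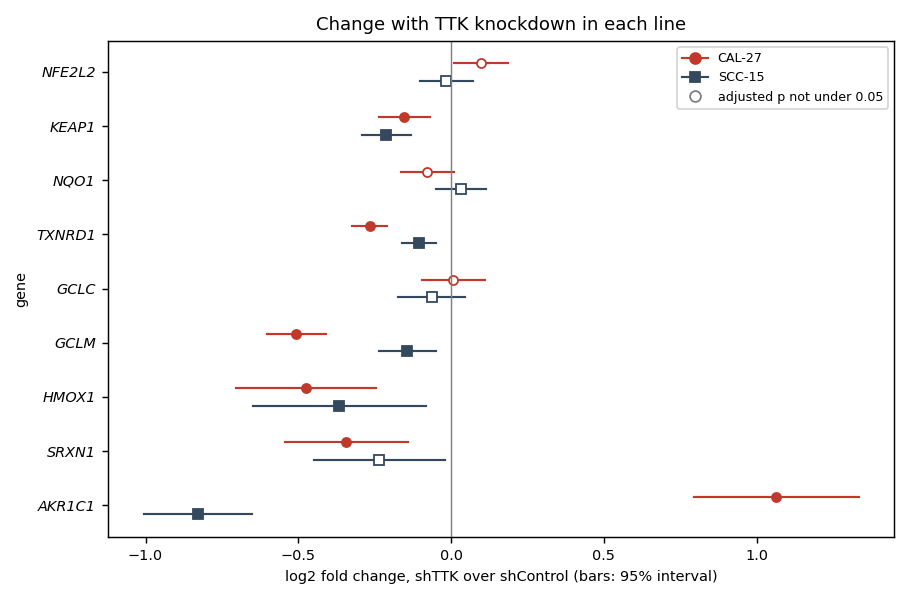
Log2 fold change of each gene, shTTK over shControl, in CAL-27 (circles) and SCC-15 (squares); bars are 95% intervals and open symbols did not pass an adjusted p of 0.05. AKR1C1 stands at 1.06 in CAL-27 and -0.83 in SCC-15, while the other called genes lie between -0.51 and -0.11.

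The promoters of the genes were searched for the core letters of the antioxidant response element, the sequence that NRF2 and small MAF proteins bind. RefSeq promoter windows (GRCh38.p14, 250 bases before to 50 after a gene's start) were at hand for 8 of the 9 genes, all but HMOX1. The windows that hold the letters are shown, and they belong to the 3 genes with a window that were called lower in both lines. Of these calls, that of GCLM in SCC-15 was lost in 4 of 20 alternative fits. SRXN1, whose window did not hold the letters, was called lower in CAL-27. In SCC-15, SRXN1 was called lower as well once both libraries numbered 1 were left out (edgeR adjusted p = 0.0434). The part of the letters in the changes was not tested. The letters TGACNNNGC were sought on both strands, where the reverse strand reads GCNNNGTCA. They stood in the windows of GCLM, TXNRD1 and KEAP1, which follow, read in the direction of the gene, with every match in capitals.
GCLM (chr1:93909381-93909680, minus strand): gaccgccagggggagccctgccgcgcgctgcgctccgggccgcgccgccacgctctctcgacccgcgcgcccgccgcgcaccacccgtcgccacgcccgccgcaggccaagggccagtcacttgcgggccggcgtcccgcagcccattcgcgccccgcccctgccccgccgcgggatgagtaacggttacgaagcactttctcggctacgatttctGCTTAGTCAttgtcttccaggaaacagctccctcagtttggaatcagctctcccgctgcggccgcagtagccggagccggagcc
TXNRD1 (chr12:104286782-104287081, plus strand): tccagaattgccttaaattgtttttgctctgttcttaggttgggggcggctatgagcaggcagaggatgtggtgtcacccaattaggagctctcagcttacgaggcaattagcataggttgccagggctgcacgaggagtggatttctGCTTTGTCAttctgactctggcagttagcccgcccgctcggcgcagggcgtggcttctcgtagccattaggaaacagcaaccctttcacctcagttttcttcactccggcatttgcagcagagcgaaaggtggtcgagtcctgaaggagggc
KEAP1 (chr19:10502722-10503021, minus strand): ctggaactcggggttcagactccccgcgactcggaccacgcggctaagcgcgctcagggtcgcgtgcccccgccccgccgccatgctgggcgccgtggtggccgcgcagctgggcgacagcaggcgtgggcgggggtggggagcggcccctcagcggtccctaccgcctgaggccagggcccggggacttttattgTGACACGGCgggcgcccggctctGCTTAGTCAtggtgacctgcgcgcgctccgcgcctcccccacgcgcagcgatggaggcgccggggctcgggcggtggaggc

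GCLM and KEAP1 share the match GCTTAGTCA on the reverse strand, which starts 34 bases before the start site in GCLM and 31 bases before it in KEAP1. KEAP1 has another match, TGACACGGC, that starts 54 bases before the start site. In TXNRD1 the match is GCTTTGTCA, starting 102 bases before the start site, which is 1 of several starts of that gene. The windows of KEAP1, NFE2L2, NQO1 and GCLC also lie wholly inside the annotated bounds of the gene, so they do not hold its outermost start. The same letters stood in 4687 of 35116 promoters in the table (13.3%). Among tested genes with a promoter in the table, 20.5% of those with the letters and 18.1% of those without were called lower in CAL-27, and 17.9% and 16.2% were called lower in SCC-15. The windows of NFE2L2, NQO1, GCLC, SRXN1 and AKR1C1 did not hold these letters. Sequence outside the windows was not searched, so these genes may hold the letters elsewhere.

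AKR1C1 (chromosome 10, 4963253 to 4983283, plus strand) encodes an aldo-keto reductase that reduces ketosteroids and reactive carbonyls. It had 7.94, 9.64 and 7.08 CPM in CAL-27 shTTK, against 3.55, 3.89 and 4.40 CPM in CAL-27 shControl. In SCC-15 it had 17.7, 17.9 and 18.6 CPM in shTTK, against 33.7, 31.6 and 30.9 CPM in shControl. The groups were far apart in both lines and in opposite directions. AKR1C1 was 2.09-fold higher with knockdown in CAL-27 (log2 change 1.06, SE 0.136, edgeR adjusted p = 8.55e-10), and in SCC-15 it held 56.3% of the control level (log2 change -0.83, SE 0.088, edgeR adjusted p = 2.09e-12). The difference between the lines was -1.89 (SE 0.161, edgeR adjusted p = 2.59e-16), and 12.1% of all tested genes were called lower in this comparison. Both directions and all 3 calls held in every alternative fit that was run and without any single library.

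AKR1C1 lies beside AKR1C2 and AKR1C3, which encode close relatives with steroid and prostaglandin substrates. AKR1C2 (chromosome 10, 4987400 to 5018031, minus strand) had 5.91, 5.62 and 4.74 CPM in CAL-27 shTTK, against 2.17, 1.32 and 1.67 CPM in CAL-27 shControl. In SCC-15 it had 14.2, 15 and 11.8 CPM in shTTK, against 28.3, 29.8 and 24.5 CPM in shControl. AKR1C2 thus had the same signs as AKR1C1, with a log2 change of 1.66 in CAL-27 (SE 0.184) and of -1.01 in SCC-15 (SE 0.102). The count of AKR1C1 relative to AKR1C2 averaged 1.52 ± 0.187 in CAL-27 shTTK and 2.41 ± 0.691 in CAL-27 shControl, and 1.33 ± 0.202 in SCC-15 shTTK and 1.17 ± 0.102 in SCC-15 shControl (SD, n = 3 each). The groups overlapped in both lines (exact two-sided permutation p = 0.2 in CAL-27 and 0.4 in SCC-15). The smallest p that 3 against 3 allow is 0.1, so this test cannot decide whether the changes of the 2 genes differed in size. AKR1C3 averaged 6.27 ± 1.59 CPM in CAL-27 shTTK and 3.30 ± 0.463 CPM in CAL-27 shControl, and 12.5 ± 0.787 CPM in SCC-15 shTTK and 18.2 ± 2.61 CPM in SCC-15 shControl (SD, n = 3 each). Its log2 changes, 0.92 in CAL-27 (edgeR adjusted p = 7.87e-06) and -0.54 in SCC-15 (edgeR adjusted p = 1.61e-04), had the same signs. NET1, further along the same chromosome and looked at after its values were seen, rose in both lines, by 0.19 in CAL-27 and 0.22 in SCC-15 (log2). The counts of AKR1C1 and AKR1C2 are not fully separate: 11.3% of the 150-base windows of the AKR1C1 transcript also occur in AKR1C2, with a longest identical stretch of 437 bases. Of the AKR1C2 windows, 21.2% also occur in AKR1C1 or AKR1C3. These shares are for the longest annotated protein-coding transcript of each gene and would differ for a shorter one. The part of shared reads in the parallel changes was not tested.

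The RefSeq promoter windows of AKR1C1 and AKR1C2 are shown because the windows are nearly the same. Both genes moved together, but the part of this likeness in their changes was not tested. AKR1C3 had the same signs, and its window was not compared with them. With AKR1C1 and AKR1C2 set 4 bases apart, 264 of 296 aligned bases were identical (89.2%). Gaps were not allowed, so bases that match only at another offset, as after the shared stretch, count as different. The 245 bases in capitals are shared without a break.
AKR1C1 (chr10:4963165-4963464, plus strand): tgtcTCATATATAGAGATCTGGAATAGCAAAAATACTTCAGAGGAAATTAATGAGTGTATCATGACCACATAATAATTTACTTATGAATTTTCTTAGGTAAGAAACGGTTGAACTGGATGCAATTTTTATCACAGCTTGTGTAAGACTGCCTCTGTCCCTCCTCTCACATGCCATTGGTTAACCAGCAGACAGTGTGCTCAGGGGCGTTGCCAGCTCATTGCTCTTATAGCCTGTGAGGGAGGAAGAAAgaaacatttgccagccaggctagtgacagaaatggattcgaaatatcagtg
AKR1C2 (chr10:5003808-5004107, minus strand): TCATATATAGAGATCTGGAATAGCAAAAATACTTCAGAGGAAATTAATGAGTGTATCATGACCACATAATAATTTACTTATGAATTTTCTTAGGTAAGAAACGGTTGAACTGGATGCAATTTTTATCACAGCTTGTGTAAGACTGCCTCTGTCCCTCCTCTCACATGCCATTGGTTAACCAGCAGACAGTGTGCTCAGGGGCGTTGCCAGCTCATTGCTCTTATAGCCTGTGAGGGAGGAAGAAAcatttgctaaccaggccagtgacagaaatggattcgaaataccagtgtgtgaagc

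Without knockdown, 8 of the 9 genes differed between the lines, and the control libraries of the lines did not overlap for the same 8 genes (77.3% of all tested genes). In SCC-15 shControl against CAL-27 shControl, 5 genes were higher (NFE2L2, KEAP1, NQO1, TXNRD1 and AKR1C1) and 3 lower (GCLC, HMOX1 and SRXN1), in a comparison where 76.0% of all tested genes were called, 37.8% higher and 38.2% lower. AKR1C1 averaged 32.1 ± 1.47 CPM in SCC-15 shControl and 3.95 ± 0.428 CPM in CAL-27 shControl (SD, n = 3 each), a difference of 3.02 on the log2 scale (SE 0.112, edgeR adjusted p = 2.30e-38). HMOX1 was the gene with the next largest difference, 6.52 ± 0.587 CPM in SCC-15 shControl and 15.2 ± 1.65 CPM in CAL-27 shControl (SD, n = 3 each; log2 difference -1.21, SE 0.123, edgeR adjusted p = 1.35e-14). KEAP1, NQO1 and TXNRD1 were higher in SCC-15 by 0.47, 0.44 and 0.42 on the log2 scale, and GCLC and SRXN1 were lower, with differences of -0.35 and -0.40. NFE2L2 differed by 0.12 (SE 0.044, edgeR adjusted p = 0.0120), a call that DESeq2 did not make (adjusted p = 0.0579) and that was lost without SCC-15 shControl replicate 2 (edgeR adjusted p = 0.105). GCLM averaged 89.2 ± 4.27 CPM in SCC-15 shControl and 88.8 ± 2.30 CPM in CAL-27 shControl (SD, n = 3 each), with a difference of 0.01 (95% interval -0.09 to 0.10). This comparison shares its control libraries with the knockdown comparisons, so their values are not independent of each other.

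Set side by side per kilobase of exon, TXNRD1 had the highest level in every group, 79.4 ± 0.854 CPM per kb in CAL-27 shTTK, 95.5 ± 1.01 in CAL-27 shControl, 118 ± 0.733 in SCC-15 shTTK and 127 ± 1.11 in SCC-15 shControl (SD, n = 3 each). NQO1 and KEAP1 came next by all annotated exons, at 29.2 and 25.4 CPM per kb in CAL-27 shTTK, 30.9 and 28.2 in CAL-27 shControl, 42.9 and 33.7 in SCC-15 shTTK, and 41.9 and 39.1 in SCC-15 shControl. With the length of the principal transcript, the order of NQO1, KEAP1 and NFE2L2 changed in every group but SCC-15 shTTK, and GCLC and GCLM changed places in both CAL-27 groups, as did HMOX1 and SRXN1. AKR1C1 was lowest in CAL-27 shTTK, CAL-27 shControl and SCC-15 shTTK, and HMOX1 was lowest in SCC-15 shControl, where AKR1C1 had 3.66 ± 0.168 CPM per kb and HMOX1 2.71 ± 0.244 (SD, n = 3 each). The AKR1C1 length was 8.765 kb by all annotated exons and 6.705 kb by the principal transcript. Which transcript the cells made was not tested, and a shorter one would raise the AKR1C1 level per kb. Annotated exons of SRXN1, NFE2L2 and GCLC share 2292, 1054 and 529 bases with a gene on the same strand. Those of NQO1 share 575 bases with a gene on the opposite strand. The longest protein-coding transcripts of NFE2L2 and GCLC shared 0 of their 150-base windows with another gene. The part of these overlaps in the counts was not tested.

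Across the 12 libraries, with the mean of each line removed, TXNRD1 and GCLM varied together (Pearson r = 0.97), and HMOX1 varied with both (r = 0.86 with TXNRD1 and 0.80 with GCLM). NQO1 varied against NFE2L2 (r = -0.67). Among 11038 genes with at least 5 CPM on average, the pattern most like that of TXNRD1 was that of JADE2 and of SCD, the stearoyl-CoA desaturase (r = 0.99 each), and the pattern most like that of GCLM was that of IVD, a leucine-breakdown enzyme (r = 0.98), and SLC12A7 (r = 0.97). For AKR1C1 it was GSR, the glutathione reductase, and DLG1 (r = 0.97 each). KEAP1 was most like TACC3, a spindle protein (r = 0.96), HMOX1 like C12orf49 (r = 0.95), SRXN1 like UGGT1 (r = 0.94), NQO1 like CTU1 (r = 0.90), NFE2L2 like CA9, the hypoxia-responsive carbonic anhydrase (r = 0.89), and GCLC like AF117829.1 (r = 0.88). These are descriptions over libraries that share the knockdown, and no p is given.

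The wider pathway was described with 7 lists of 138 genes, of which 132 were tested. In CAL-27, 31 rose and 31 fell with TTK knockdown, beside 11.6% and 15.7% of all tested genes. In SCC-15, 25 rose and 39 fell, beside 13.4% and 14.3% of all tested genes. The median log2 change of these 132 genes was -0.01 in CAL-27 and -0.04 in SCC-15.

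Of 20 regulators and partners of NRF2, 5 rose and 6 fell in CAL-27 (median 0.03), and 3 rose and 9 fell in SCC-15 (median -0.09). SQSTM1, the autophagy receptor p62 that sequesters KEAP1, averaged 440 ± 14.2 CPM in CAL-27 shTTK and 561 ± 9.38 CPM in CAL-27 shControl, and 247 ± 8.84 CPM in SCC-15 shTTK and 325 ± 7.85 CPM in SCC-15 shControl (SD, n = 3 each). It fell in both lines, with log2 changes of -0.35 (edgeR adjusted p = 1.27e-15) and -0.40 (edgeR adjusted p = 3.43e-17) in CAL-27 and SCC-15. The NRF2 relative NFE2L3 also fell in both lines (-0.45 in CAL-27 and -0.40 in SCC-15). Of the small MAF partners, MAFG fell (-0.28 and -0.47) and MAFF rose (0.22 and 0.29) in CAL-27 and SCC-15. The SCC-15 call of MAFF was lost without both SCC-15 libraries numbered 1 (log2 change 0.27). NFE2L1, the sensor of proteasome activity, rose in CAL-27 (0.41) and fell in SCC-15 (-0.18).

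Of 23 tested genes of glutathione synthesis and use, 9 rose and 1 fell in CAL-27 (median 0.09), and 6 rose and 6 fell in SCC-15 (median 0.04). SLC7A11 (xCT) and SLC3A2 form the cystine importer that supplies glutathione synthesis. SLC7A11 averaged 61.0 ± 4.34 CPM in CAL-27 shTTK and 38.7 ± 0.405 CPM in CAL-27 shControl, and 113 ± 9.23 CPM in SCC-15 shTTK and 143 ± 6.76 CPM in SCC-15 shControl (SD, n = 3 each). It rose by 0.65 in CAL-27 (SE 0.057) and changed by -0.33 in SCC-15 (SE 0.046) on the log2 scale. SLC3A2 (0.43 and -0.16) and GSR (0.33 and -0.22), which regenerates reduced glutathione, had the same opposite signs in CAL-27 and SCC-15. GGCT, a gamma-glutamylcyclotransferase, was the gene that fell in CAL-27 (-0.30), and it fell in SCC-15 as well (-0.21). In SCC-15, GSTM3, a glutathione transferase, rose by 0.91 and CHAC1, a glutathione-degrading enzyme, by 0.88, while GGT1, which breaks down extracellular glutathione, fell (-0.68).

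Of 21 genes of thioredoxin, peroxiredoxin and superoxide enzymes, 2 rose and 6 fell in CAL-27 (median -0.06), and 1 rose and 5 fell in SCC-15 (median -0.05). PRDX5, a peroxiredoxin, rose in CAL-27 (0.34), and TXN, the cytosolic thioredoxin that TXNRD1 reduces, rose in SCC-15 (0.17). SOD2, the mitochondrial superoxide dismutase, fell in both lines (-0.32 in CAL-27 and -0.20 in SCC-15). The count table holds 2 lines with the symbol SOD2, and these values are those of the first. TXN2, the mitochondrial thioredoxin, fell in SCC-15 (-0.33).

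Of 29 tested genes of carbonyl, quinone and drug metabolism, 11 rose and 4 fell in CAL-27 (median 0.23), and 6 rose and 9 fell in SCC-15 (median -0.07). AKR1B1, the aldose reductase, fell most clearly in CAL-27 (-0.78, SE 0.032) and fell less in SCC-15 (-0.17, SE 0.033), a difference that itself passed (0.60, edgeR adjusted p = 2.13e-18). ABCC2, an export pump for glutathione conjugates, averaged 101 ± 1.99 CPM in SCC-15 shTTK and 44.3 ± 2.63 CPM in SCC-15 shControl (SD, n = 3 each), a log2 change of 1.18 (SE 0.061). Its relative ABCC3 fell in CAL-27 (-0.26) and rose in SCC-15 (0.59).

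**Figure D4:**
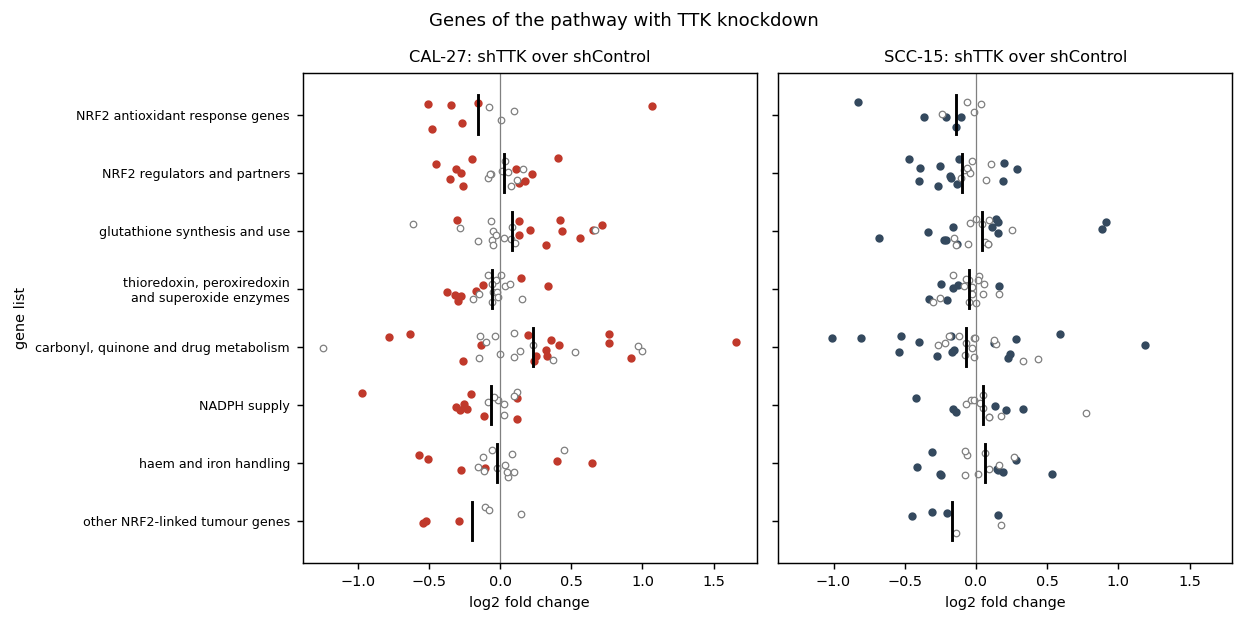
Log2 fold change, shTTK over shControl, of the 9 genes and of the tested genes of each list in CAL-27 (left) and SCC-15 (right); filled points passed an adjusted p of 0.05, open points did not, and black bars are medians. The median of the carbonyl, quinone and drug metabolism list is 0.23 in CAL-27 and -0.07 in SCC-15.

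Of 16 NADPH-supply genes, 2 rose and 7 fell in CAL-27 (median -0.06), and 3 rose and 3 fell in SCC-15 (median 0.05). PGD, the 6-phosphogluconate dehydrogenase, fell in CAL-27 (-0.21), and its log2 change in SCC-15 was 0.05 (edgeR adjusted p = 0.278). TALDO1, the transaldolase, fell in CAL-27 (-0.23) and rose in SCC-15 (0.33). NNT, the mitochondrial transhydrogenase, fell in SCC-15 (-0.42).

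Of 17 tested genes of haem and iron handling, 2 rose and 4 fell in CAL-27 (median -0.02), and 5 rose and 4 fell in SCC-15 (median 0.06). Without both SCC-15 libraries numbered 1, 2 rose in SCC-15, as without shControl replicate 1 alone. The ferritin light chain FTL averaged 680 ± 18.8 CPM in CAL-27 shTTK and 1007 ± 24.9 CPM in CAL-27 shControl, and 825 ± 44.7 CPM in SCC-15 shTTK and 819 ± 11.1 CPM in SCC-15 shControl (SD, n = 3 each). FTL fell in CAL-27 (-0.57, SE 0.031), and the heavy chain FTH1 fell in both lines (-0.51 in CAL-27 and -0.25 in SCC-15). The transferrin receptor TFRC and the ferritin autophagy receptor NCOA4 fell in both lines, with -0.11 and -0.27 in CAL-27 and -0.31 and -0.41 in SCC-15. The haem transporter SLC48A1 rose in both lines (0.65 in CAL-27 and 0.53 in SCC-15). Of 6 other tested NRF2-linked tumour genes, 3 fell in CAL-27 and none was called higher, and 3 fell and 1 rose in SCC-15, with medians of -0.20 and -0.17. The gene that rose was PIR, a nuclear iron-binding protein, and its call was lost without both SCC-15 libraries numbered 1 (log2 change 0.16, edgeR adjusted p = 0.0780) and in 3 of 20 alternative fits in all. TRIM16L fell in both lines (-0.52 and -0.31), OSGIN1 fell in CAL-27 (-0.54), and ABHD4 fell in SCC-15 (-0.45).

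Of the 132 list genes, 11 shared the pattern of AKR1C1, called higher in CAL-27 and lower in SCC-15 (1.91% of all tested genes had it), and 4 had the reverse pattern (2.90% of all tested genes). The lists were chosen with earlier results of these data known, and AKR1C2 and AKR1C3 lie beside AKR1C1. The 132 genes were also called more often in general: 31 rose and 31 fell in CAL-27, and 25 rose and 39 fell in SCC-15. Of all tested genes, 27.3% and 27.7% were called in these lines, so the shares over all tested genes are not a like background. The 11 were AKR1C2, AKR1C3, AKR1B10, ALDH3A1, CBR1, SLC7A11, SLC3A2, GSR, CAT, NFE2L1 and RXRA, of which AKR1B10, ALDH3A1 and CBR1 were singled out after their values were seen. AKR1C2, AKR1C3, AKR1B10, ALDH3A1 and CBR1 encode enzymes that reduce or oxidise carbonyls. AKR1B10, a retinal and carbonyl reductase, averaged 3.68 ± 0.646 CPM in CAL-27 shTTK and 2.16 ± 0.206 CPM in CAL-27 shControl, and 7.24 ± 0.426 CPM in SCC-15 shTTK and 12.7 ± 0.825 CPM in SCC-15 shControl (SD, n = 3 each). ALDH3A1, an aldehyde dehydrogenase of squamous and corneal epithelium, averaged 11.2 ± 0.462 CPM in CAL-27 shTTK and 6.61 ± 0.878 CPM in CAL-27 shControl, and 48.3 ± 5.89 CPM in SCC-15 shTTK and 63.7 ± 7.12 CPM in SCC-15 shControl (SD, n = 3 each). Their log2 changes were 0.77 each in CAL-27, and -0.81 for AKR1B10 and -0.40 for ALDH3A1 in SCC-15. The SCC-15 call of CAT, the catalase, was weak (log2 change -0.13, edgeR adjusted p = 0.0317) and was lost in 10 of 20 alternative fits. The 4 genes of the reverse pattern, lower in CAL-27 and higher in SCC-15, were ABCC3, TALDO1, GSK3A and AKR7A2. GSK3A, a kinase of the family that marks NRF2 for degradation apart from KEAP1, changed by -0.20 in CAL-27 and 0.19 in SCC-15 on the log2 scale. AKR7A2, another aldo-keto reductase, singled out after its values were seen, changed by -0.13 in CAL-27, a call lost in 9 of 20 alternative fits, and by 0.28 in SCC-15. The carbonyl enzymes of the list thus did not all share the direction of AKR1C1. Of the same 132 genes, 13 were lower in both lines (4.01% of all tested genes) and 9 were higher in both (2.87%).

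**Figure D5:**
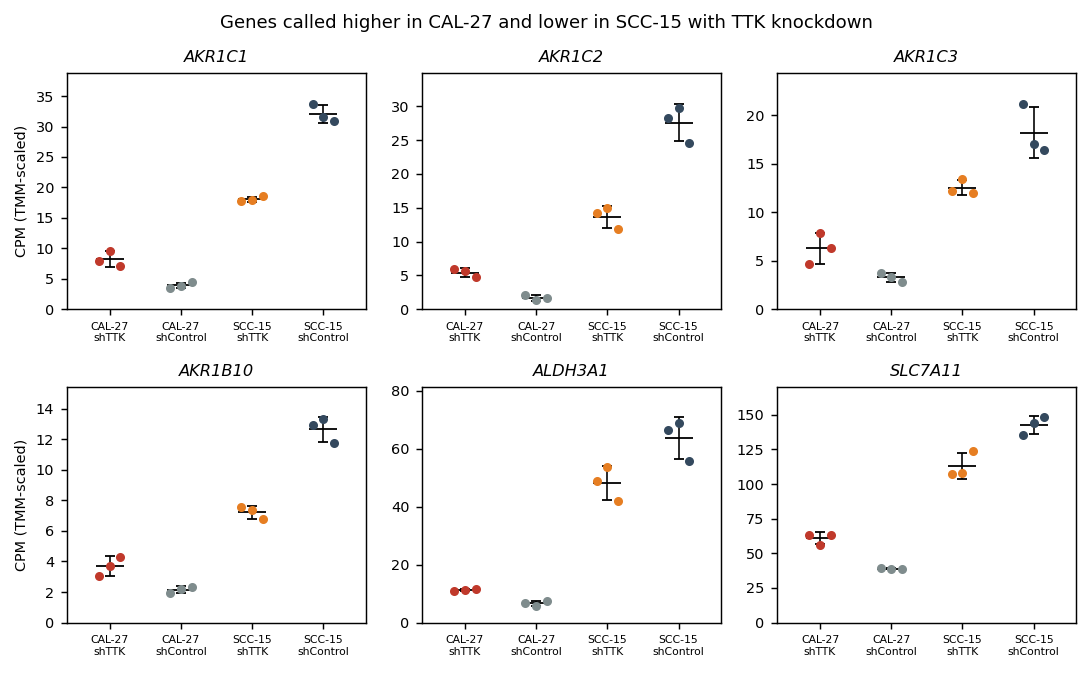
CPM (TMM-scaled, axis from 0) by library for AKR1C1 and 5 of the 11 list genes called higher in CAL-27 and lower in SCC-15 (AKR1C2, AKR1C3, AKR1B10, ALDH3A1 and SLC7A11); points are libraries, ticks are means and bars are 1 SD (n = 3). SCC-15 shControl has the highest mean for every gene shown (AKR1C1 32.1 CPM) and CAL-27 shControl the lowest (AKR1C1 3.95 CPM). This order did not hold for all 11, since GSR averaged 245 CPM in CAL-27 shTTK, the highest group, and 176 CPM in SCC-15 shTTK, the lowest, and CAT averaged 459 and 415 CPM in CAL-27 shTTK and shControl and 49.8 and 54.5 CPM in SCC-15 shTTK and shControl.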

How the data were processed

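Poly(A) RNA of 12 cell line libraries was sequenced with a strand-marking (dUTP) kit in 150-base read pairs (NovaSeq), per the labels' protocols. The authors deposited 1 table of raw counts per gene for all 12 libraries, without normalization. Trim Galore 0.6.6, STAR 2.7.7a, featureCounts 2.0.1 and the build hg38 were used, per the submitters' processing notes. Which annotation was counted against, whether strand was used and how multi-mapping reads were treated is not given in the sources used here.

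From these counts, edgeR 4.0.16 in R 4.3.3 (filterByExpr, TMM, robust quasi-likelihood) fitted 4 group means to the 12 libraries, leaving 8 residual degrees of freedom. P-values are two-sided and adjusted by Benjamini-Hochberg over the 16946 genes tested. The SE is the log2 change divided by the root of F. Means and SDs are of TMM-scaled CPM. The steps were tested on simulated data. Alternatives were RLE size factors, DESeq2 1.42.0, limma-voom (limma 3.58.1), no count filter, 1 CPM in 3 libraries, each line alone, a replicate block, both SCC-15 libraries numbered 1 left out, and each library left out. Gene positions and exon lengths are those of GENCODE release 29 (GRCh38), and promoters are RefSeq's. List genes were named by a rule: in each list, the 2 with the smallest adjusted p per direction and comparison, and, for each of the 9 genes, the 2 with the most similar pattern. Not every gene taken by the rule is reported here. The 9 genes, the lists and the rule were chosen with earlier results of these data known.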

Additional observations from a re-analysis of the deposited data

Results flagged for a closer look

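The following genes changed differently with TTK knockdown in SCC-15 and in CAL-27, by edgeR's test of the difference itself (adjusted p under 0.05, 25.4% of all tested genes). Each value is the log2 change in SCC-15 minus that in CAL-27, so a negative value means a lower change in SCC-15. TTK itself differed by -0.67.

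Among the 9 genes, TXNRD1 differed by 0.16, GCLM by 0.36 and AKR1C1 by -1.89. Among enzymes of carbonyl, quinone and drug metabolism, the differences were AKR1C2 -2.67, AKR1C3 -1.46, AKR1B10 -1.57, ALDH3A1 -1.17, CBR1 -0.53, AKR1B1 0.60, ABCC2 1.05, ABCC3 0.85 and AKR7A2 0.42. Among glutathione genes they were SLC7A11 -0.99, SLC3A2 -0.59, GSR -0.55, GGT1 -0.63 and CHAC1 0.91. Among thioredoxin and peroxide enzymes they were TXN 0.22, TXN2 -0.28, PRDX5 -0.28 and CAT -0.27.

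Among regulators of NRF2 the differences were MAFG -0.19, NFE2L1 -0.59, RXRA -0.23 and GSK3A 0.39. Among NADPH-supply genes they were PGD 0.26, TALDO1 0.56 and NNT -0.52. Among iron-handling genes they were FTH1 0.26, FTL 0.58, TFRC -0.20 and NCOA4 -0.14. The NCOA4 call was lost in 3 of 19 alternative fits: with no count filter (edgeR adjusted p = 0.0605), without SCC-15 shControl replicate 1 (edgeR adjusted p = 0.0701) and without both SCC-15 libraries numbered 1 (log2 difference -0.11). Among other NRF2-linked genes they were PIR 0.26, OSGIN1 0.40 and ABHD4 -0.37, of which the PIR call was lost in 4 of 19 alternative fits and the OSGIN1 call in 15 of 19.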

How the results depend on the processing

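Of 156 recomputed counts of called genes among the 9, 149 stayed within 1.5 times their value. Of the recomputed counts for the 7 lists, 1049 did and 43 did not. In CAL-27, 2 of the carbonyl, quinone and drug metabolism genes fell, in place of 4, with no count filter, without shTTK replicate 1 and without shControl replicate 2. Of the NADPH-supply genes in CAL-27, 4 fell, in place of 7, without shTTK replicate 1, and 1 rose, in place of 2, without shTTK replicate 3 and without shControl replicate 1. Of the thioredoxin, peroxiredoxin and superoxide enzymes, 2 rose in SCC-15, in place of 1, without shTTK replicate 3, and PIR no longer rose without shTTK replicate 2 or shControl replicate 3. With CAL-27 fitted alone, 2 genes were called higher in CAL-27 (NFE2L2 joined AKR1C1), and with no count filter, 3 were called lower in SCC-15 (GCLM and HMOX1 were lost). Without each library in turn, the genes called higher numbered 1 to 2 in CAL-27, 0 to 0 in SCC-15 and 4 to 5 between controls, and those called lower 4 to 5 in CAL-27, 3 to 5 in SCC-15 and 3 to 3 between controls; 2 genes differed positively and 1 negatively between lines in each such fit.

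Changes of sign concerned values near 0. The GCLM difference between controls became -0.0094 with RLE size factors, -0.0094 with DESeq2, -0.00050 with no count filter and -0.027 without both SCC-15 libraries numbered 1, and ranged from -0.030 to 0.037 without single libraries. The NFE2L2 change in SCC-15 became 1.87e-04 with no count filter and 0.046 without both SCC-15 libraries numbered 1, and ranged from -0.051 to 0.040 without single libraries. Without single libraries, GCLC in CAL-27 ranged from -0.047 to 0.071, NQO1 in SCC-15 from -0.0012 to 0.064, and the SRXN1 difference between lines from -0.020 to 0.20. The cause was not tested.

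The replicate numbers showed no detectable pairing: same-numbered shTTK and shControl libraries deviated with correlations of -0.020 to 0.034 over all tested genes. Counting noise pulls such correlations towards 0, so they cannot decide whether a culture or day was shared. With the number as a block, 1947 genes were called higher and 2615 lower in CAL-27, against 1961 and 2657 without it, and the 9 genes gave the same counts (1 higher and 5 lower in CAL-27, 0 and 5 in SCC-15). HMOX1 held 78 to 100 counts per library in SCC-15 shTTK and 103 to 125 in SCC-15 shControl.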
